A study of Mus musculus with 8 samples.

Results

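The genes described here encode the nuclear subunits of oxidative phosphorylation, the 5 protein complexes of the mitochondrial inner membrane that turn the oxidation of nutrients into ATP. They were taken by symbol, as every gene whose name follows the Nduf, Sdh, Uqcr, Cox4 to Cox8 or Atp5 series of subunit names, and 88 of the 33696 genes in the files met this: 40 of complex I, 4 of complex II, 8 of complex III, 19 of complex IV and 17 of complex V. The symbol pattern also takes in Cox5b-ps, Ndufb4b and Ndufb11b, which are copies of Cox5b, Ndufb4 and Ndufb11 and whose counts can be shared with them, and Cox7a2l, which is known chiefly for joining complexes III and IV into supercomplexes. Ndufa4 is kept with complex I by its name, although its protein is now placed with complex IV.

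The data are counts of unique molecular identifiers (UMIs, each standing for 1 captured mRNA molecule) from droplet single-cell RNA-seq of tumour-bearing mouse liver. Tumours were raised in male C57BL/6 mice aged 8 to 10 weeks by hydrodynamic tail vein injection, a rapid large-volume injection that drives plasmid DNA into hepatocytes. The plasmids carried Cas9 with a guide to the tumour suppressor gene Trp53, a c-Myc transposon and its Sleeping Beauty transposase under a CMV promoter, and livers were taken 4 to 5 weeks later. Control mice were Nr4a1fl/fl without Cre. The mice labelled knockout were Ncr1iCre Nr4a1fl/fl, in which Cre follows Ncr1, a receptor gene of natural killer (NK) cells and other innate lymphoid cells, so that deletion of Nr4a1 (Nur77) is directed to those cells and not to hepatocytes. Each group had 3 mRNA libraries. Control 3 pooled 3 mice and knockout 3 pooled 2, each pool counts as 1 sample, and the labels do not say which animals lie behind the other libraries, so p-values measure the spread between these libraries.

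Electrons enter the chain at complex I (from NADH) and complex II (from succinate, in the citric acid cycle), pass through complex III and cytochrome c to complex IV, which reduces oxygen, and the proton gradient so built drives complex V, the ATP synthase. Complex II is made of nuclear products alone, while the other 4 join nuclear subunits to a core made in the mitochondrion. Several complex IV subunits exist as a common and a tissue-restricted form encoded by separate genes, and the hepatocyte is a cell type rich in mitochondria.

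After filtering, 21482 cells were kept, from 134 in knockout 2 to 10128 in control 3, and 887170 to 93302952 UMIs stood behind them per library. Cells were called by marker UMIs, none of them from a member, and 61.2% to 71.3% of each library's cells received a call. A called class is the set of cells that look like that type by these markers, and is named plainly from here on. The hepatocyte class cannot be split here into normal and tumour hepatocytes, and H19 and Fabp6 stood among its leading genes. Control 2 and knockout 2 stood apart, with median mitochondrial shares of 27.9% and 75.1% before filtering against 6.68% to 10.0% in the other 4. No pair of libraries shared more than 15 cell barcodes. For 11 classes with at least 10 cells in at least 4 libraries, UMIs were summed per library and class, which gave 54 sums. Levels are given in CPM, the count of a gene scaled to the UMI total of its class in 1 library. The method tags each mRNA once at its 3′ end, so CPM does not scale with gene length, although capture can differ between genes.

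Hepatocytes gave the largest part of their RNA to these 88 genes. Their share of hepatocyte UMIs was 4.89% ± 0.41 (SD, n = 6 libraries), with single libraries between 4.54% and 5.42%. NK cells followed at 2.13% ± 0.23 (n = 6), conventional dendritic cells at 2.09% ± 0.10 (n = 4), macrophages at 1.99% ± 0.49 (n = 4), T cells at 1.90% ± 0.21 (n = 5) and monocytes at 1.89% ± 0.10 (n = 4). These 5 classes overlapped one another, except that every monocyte library lay below every conventional dendritic one. Plasmacytoid dendritic cells stood at 2.22% to 2.46% in 3 libraries and at 0.153% in the 11 cells of control 2, a mean of 1.81% ± 1.11 (n = 4), and basophils or mast cells at 1.63% ± 0.24 (n = 5). The lowest shares were those of endothelial cells at 1.25% ± 0.45 (n = 5), B cells at 1.21% ± 0.17 (n = 5) and neutrophils at 0.945% ± 0.372 (n = 6), which also overlapped. Among sums of at least 10 cells, no library of any other class reached the lowest hepatocyte library. The 2 cholangiocytes of control 2 lay above it, at 5.51%.

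**Figure D1:**
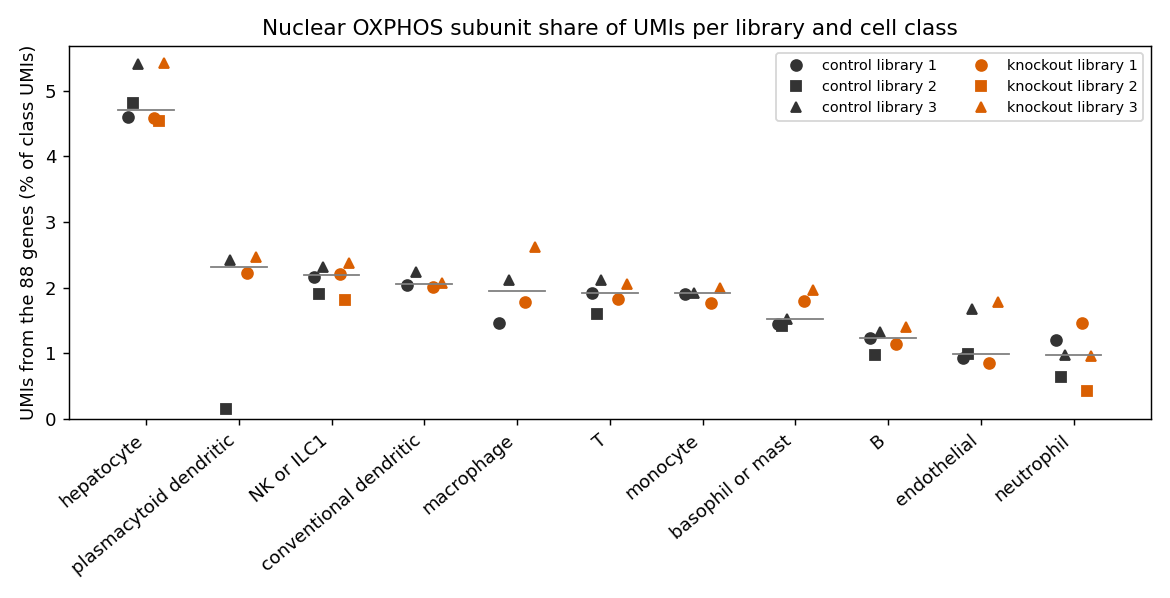
Share of UMIs from the 88 subunit genes (y axis, % of the UMIs of a class) for each library with at least 10 cells, by cell class (x axis). Control libraries are dark and knockout libraries orange, and the symbol gives the library number. The 6 hepatocyte libraries lie between 4.54% and 5.42%, above every library of the other classes, and the single low plasmacytoid dendritic point is control 2 at 0.153%.

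The number of members read per cell followed depth as well as share. Median UMIs per hepatocyte ran from 5104 in control 2 to 99644 in knockout 1, and a median hepatocyte held 177.5 to 4631 member UMIs. A median NK cell held 5 in knockout 2 and 57.5 to 124 in the other libraries. The UMIs of 12 hepatocyte markers, a trace of RNA from broken hepatocytes, made up 0.00396% to 0.172% of UMIs in the other 10 classes. In hepatocytes themselves these markers made up only 1.13% to 1.61%, so the share of all carried-over hepatocyte RNA is larger than that of the markers. Its part in the members' levels was not tested.

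Cells with few ribosomal protein UMIs moved with the share in some classes and not in others. Cells under 5% ribosomal protein UMIs made up 86.0% of neutrophils, 50.3% of endothelial cells, 46.1% of plasmacytoid dendritic cells and 1.69% of hepatocytes (means over libraries). B cells and basophils or mast cells had low shares with few such cells, at a median over libraries of 6.82% and 3.92%, although B cells of control 2 reached 44.0%. Within NK cells, the members' share was 0.17% to 0.51% in such cells and 2.12% to 2.42% in the rest. In neutrophils, where the rest are few, it was 0.43% to 0.84% against 1.43% to 1.94% in the 5 libraries that held any. The part that such cells play in the low share of a class was not tested, apart from the results without them given beside the counts that they move.

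The proportions of the 5 complexes lay in narrow ranges, but some differed between classes by more than their spread over libraries. Complex I supplied 28.6% to 34.4% of the members' UMIs, complex IV 24.0% to 31.5% and complex V 26.9% to 32.5% (class means). Complex I ran from 28.6% ± 0.88 in hepatocytes (n = 6) to 34.4% ± 0.57 in endothelial cells (n = 5). Complex III supplied 14.2% ± 0.76 of the members' UMIs in hepatocytes (n = 6), with class means of 8.53% to 10.8% in the other 10 classes. Complex II, which has the fewest genes, supplied 1.23% to 1.85%, and 3.56% ± 4.46 in plasmacytoid dendritic cells (n = 4), where control 2 had few member UMIs.

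Each class was then compared with the mean of the other 10, gene by gene, in 1 fit over all 11407 genes tested (edgeR quasi-likelihood test with library as a block, Benjamini-Hochberg adjustment, two-sided, threshold 0.05). Of the 88 members 80 were tested. Ndufb11b and Cox8c had no UMI in any summed class, Cox7b2 had 2 and Cox8b 5, and Cox4i2, Ndufa4l2, Cox7a1 and Ndufb4b, with 176 to 1471 UMIs, also fell below the filter. For every class but the hepatocytes, the mean of the others includes the hepatocytes, where the members are high.

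In hepatocytes 77 of the 80 members were higher and none was lower, while 42.6% of all genes tested were called higher there and 32.9% lower. The median member was 1.94 higher on the log2 scale, against 0.03 for all genes. By complex, 36 of 37 tested members of complex I were higher, 4 of 4 of complex II, 8 of 8 of complex III, 12 of 14 of complex IV and 17 of 17 of complex V, with medians of 2.03, 2.00, 2.39, 1.65 and 1.94. The 3 members not called were Ndufa3 of complex I at 0.28, and Cox6a2 and Cox6b2, restricted forms of complex IV subunits, at 0.24 and -0.02.

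Within complex I, Ndufa4 and Ndufb1 had the highest levels over the classes and Ndufa5 and Ndufa12 the widest range. Ndufa4 was read at 1689, 1316 and 1546 CPM in control hepatocytes (libraries 1 to 3 in this order here and below), while the knockout hepatocytes gave 1471, 1127 and 1581 CPM. Its hepatocyte mean of 1455 ± 203 CPM compared with 575 ± 108 in NK cells, the next class, and 159 ± 134 in neutrophils, the lowest. The hepatocyte and NK libraries did not overlap. Ndufa5, an accessory subunit of the peripheral arm, stood at 520.4 ± 62.2 CPM in hepatocytes and at 33.9 ± 33.8 in neutrophils, with a log2 difference of 2.64 in hepatocytes (SE 0.15, adjusted p = 1.2e-23, edgeR). Ndufa12, which sits beside it in that arm, was 2.46 higher there (SE 0.13).

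Ndufb1, a small accessory subunit of the membrane arm, broke this order. It was highest in monocytes, at 564 and 679 CPM in the 2 control libraries with such cells and 546 and 518 CPM in the 2 knockout libraries, and hepatocytes followed at 396 ± 83.4 CPM (n = 6). The lowest monocyte library lay just above the highest hepatocyte library, at 514 CPM. Ndufb1 was called higher in both classes, by 0.92 in monocytes (SE 0.18, adjusted p = 2.8e-05, edgeR) and by 0.69 in hepatocytes (SE 0.16).

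The 4 subunits of complex II, succinate dehydrogenase, were all called higher in hepatocytes. Sdhd, which encodes a membrane anchor of the enzyme, was read there at 303, 281 and 321 CPM in the controls and 308, 256 and 351 CPM in the knockouts. It lay at 71.3 ± 15.7 CPM in conventional dendritic cells, the next class, and the hepatocyte difference was 2.87 (SE 0.12, adjusted p = 8.8e-30, edgeR). Sdhb, the iron-sulphur subunit, and Sdhc, the other anchor, were 1.70 (SE 0.13) and 2.31 (SE 0.12) higher in hepatocytes. Sdhc was also higher in macrophages, by 0.74 (SE 0.22, adjusted p = 0.0086, edgeR).

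Complex III held the member with the widest range after Cox6a2, a restricted form described below. Uqcr11, its smallest subunit, was read in hepatocytes at 1565, 1804 and 2018 CPM in the controls and 1635, 1934 and 2040.5 CPM in the knockouts. Every hepatocyte library lay far above every other sum, the next class mean being 316 ± 127 CPM in macrophages and the lowest 97.3 ± 42.1 in neutrophils. The difference was 3.48 on the log2 scale (SE 0.14, adjusted p = 8.4e-30, edgeR). Uqcr10 and Uqcrq, both small subunits, rose by 2.97 (SE 0.14) and 2.56 (SE 0.15) in hepatocytes. Uqcrh, the hinge protein at the cytochrome c site, varied less, from 935 ± 97.4 CPM in hepatocytes to 175 ± 68.4 in neutrophils, with 684 ± 53.6 in basophils or mast cells and 683 ± 73.0 in T cells in between. Its difference in hepatocytes was 1.34 (SE 0.17), and it was also called higher in T cells, by 0.51 (SE 0.19), and in basophils or mast cells, by 0.57 (SE 0.20).

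In complex IV the most abundant members were Cox8a and Cox4i1, the common forms of 2 nuclear subunits. Cox8a was read at 1644, 1886 and 1994 CPM in control hepatocytes and 1553, 1571 and 1989.9 CPM in knockout hepatocytes. It was the member with the highest level in NK cells too, at 1042 ± 204 CPM, and the 2 sets of libraries did not overlap. Cox4i1 went from 1570.0 ± 205 CPM in hepatocytes to 383 ± 125 in neutrophils, and was 1.56 higher in hepatocytes (SE 0.17, adjusted p = 6.6e-12, edgeR). Cox7b rose by 2.06 there (SE 0.15). Cox7a2l, the supercomplex factor, rose by only 0.68 (SE 0.16), and its highest class mean was that of basophils or mast cells, at 326 ± 22.1 CPM.

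Complex V, the ATP synthase, held both flat and steep patterns. Atp5e, the epsilon subunit of the stalk, was read at 992 ± 173 CPM in hepatocytes, 979 ± 168 in conventional dendritic cells and 967 ± 158 in NK cells. These levels do not differ beyond their spread. Atp5e was nevertheless called higher in hepatocytes, by 0.75 (SE 0.20, adjusted p = 6.8e-04, edgeR). Endothelial cells (439 ± 161 CPM) and neutrophils (402 ± 169 CPM) had the lowest levels. Atp5l, subunit g of the membrane part, rose by 1.31 (SE 0.16) in hepatocytes. Atp5g1 stood at 1451, 1403 and 1555 CPM in control hepatocytes and 1421, 1449 and 1801 CPM in knockout hepatocytes, and at 414 ± 112 CPM in macrophages, the next class. Its hepatocyte difference was 2.92 (SE 0.17, adjusted p = 1.2e-22, edgeR).

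**Figure D2:**
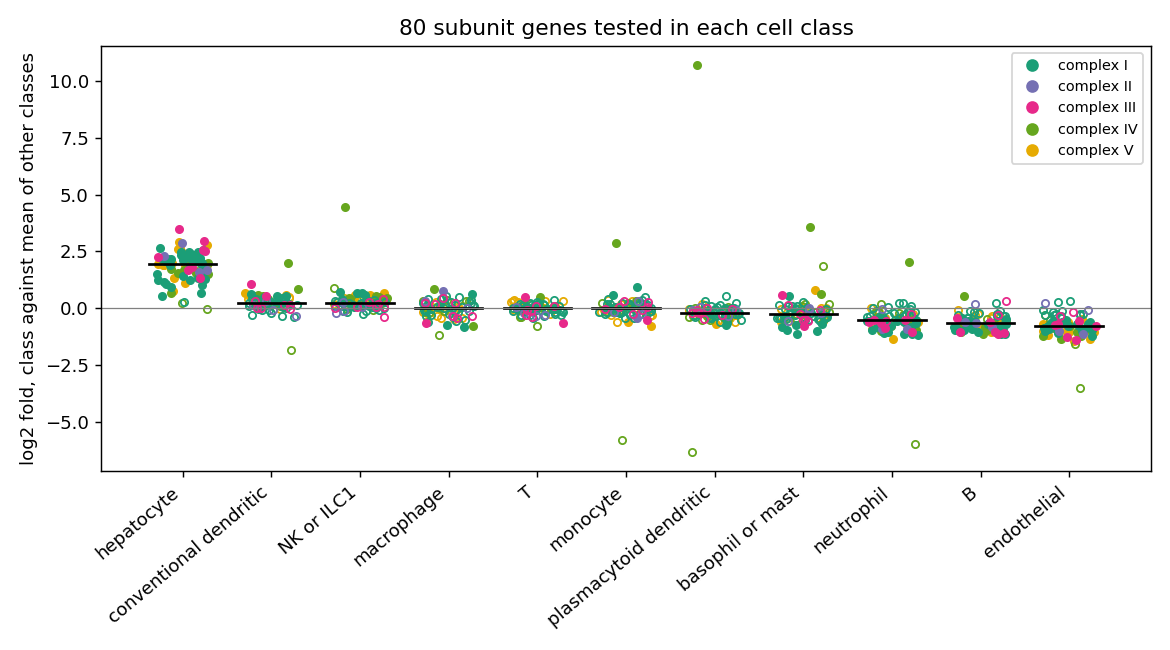
Difference of each of the 80 tested members between a class and the mean of the other classes (y axis, log2 fold), by class (x axis), with 1 circle per gene, coloured by complex, filled where the adjusted p was under 0.05, and a black line at the median. The hepatocyte median lies at 1.94 and those of B and endothelial cells at -0.66 and -0.80. The isolated complex IV points are Cox6a2 and Cox6b2, whose fitted values in classes with few or no UMIs depend on the prior count.

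Endothelial cells, B cells and neutrophils stood on the low side. In endothelial cells 60 of the 80 members were lower and none higher, against 22.1% of all genes called lower and 34.1% higher, with a median of -0.80 beside 0.11 for all genes. All but 1 of the 17 members of complex V were among them, and Atp5c1 and Atp5d, subunits gamma and delta of the ATP synthase stalk, fell by 1.45 (SE 0.20) and 1.35 (SE 0.21). In B cells 53 members were lower and 1 higher, against 20.7% and 27.9% of all genes, with a median of -0.66. Ndufb6, a membrane-arm subunit of complex I, was read in B cells at 48.4, 19.0 and 55.2 CPM in the controls and 31.4 and 61.2 CPM in the 2 knockout libraries with such cells, a difference of -1.12 (SE 0.20, adjusted p = 4.1e-06, edgeR). The member that was higher in B cells was Cox7a2l, at 296 ± 40.5 CPM (0.52, SE 0.17). In neutrophils 39 members were lower and 1 higher, against 21.6% and 24% of all genes, with a median of -0.51 beside -0.16. Atp5g3 fell there by 1.37 (SE 0.21), from class means up to 289 ± 70.1 CPM in NK cells to 54.2 ± 30.1 in neutrophils.

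These 3 counts depended on which cells and libraries entered. With cells of at least 5% ribosomal protein UMIs the neutrophil count fell from 39 to 11, and with plain library totals it was 70. Without control 3 the neutrophil count was 24, and without knockout 3 the B cell count was 29. With the control libraries alone 37 members were lower in endothelial cells, 20 in B cells and 14 in neutrophils. The medians kept their sign in all 17 settings, between -1.06 and -0.51 in endothelial cells, -0.90 and -0.55 in B cells and -0.94 and -0.24 in neutrophils, and the hepatocyte median lay between 1.64 and 2.55.

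In NK cells the median member was 0.23 beside 0.07 for all genes, and in conventional dendritic cells 0.24 beside -0.03. Of the 80 members 15 were higher in NK cells and none lower, against 26.4% and 15.4% of all genes. The share called higher was thus below that of all genes. The 15 were 5 each of complexes I, IV and V. Ndufa4 was read in NK cells at 706, 441 and 582 CPM in the controls and 668, 458 and 597 CPM in the knockouts, with both libraries numbered 2 lowest, and rose by 0.69 (SE 0.21, adjusted p = 0.0047, edgeR). Atp5g3 rose by 0.68 (SE 0.15) and Cox8a by 0.52 (SE 0.17). The count was 8 without control 1, 7 without control 3, 9 without both libraries numbered 2 and 27 with plain library totals, and DESeq2 gave 10 higher and 3 lower.

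Conventional dendritic cells had 13 members higher and none lower, against 19.2% and 11.7% of all genes. Uqcrb, which encodes a subunit of complex III, was read there at 479.9 and 562 CPM in the controls and 454 and 461 CPM in the knockouts, and rose by 1.06 (SE 0.22, adjusted p = 7.1e-05, edgeR). Cox7b rose by 0.84 (SE 0.19). The count was 4 without control 1, 3 without control 3, knockout 1 or knockout 3, and plain totals gave 8 higher and 2 lower.

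The remaining classes showed few calls. Basophils or mast cells, a class led by Mcpt4 and Cpa3, had 5 members higher and 10 lower, against 16.8% and 10.5% of all genes. Ndufa5 fell there by 1.12 (SE 0.28), and Atp5pb, subunit b of the ATP synthase, rose by 0.80 (SE 0.17). The 10 became 43 in cells with at least 5% ribosomal protein UMIs, 17 without control 2, 5 without control 1, 3 without control 3 and 6 without knockout 3. Macrophages had 3 higher and 5 lower, against 17.8% and 7.11%, or 9 and 3 with plain totals. Cox5a, a matrix-side subunit of complex IV, was read in macrophages at 546 and 699 CPM in the controls and 608 and 808 CPM in the knockouts, and rose by 0.86 (SE 0.24). Monocytes had 3 higher and 4 lower, against 26.7% and 12.9%, among the latter Atp5b, the catalytic beta subunit, at -0.76 (SE 0.22). T cells had 2 higher and 1 lower, against 25.6% and 16.5%, or 5 and 1 with plain totals and 2 and 11 with DESeq2. Cox7a2l rose in T cells by 0.48 (SE 0.17) and Uqcr11 fell by 0.64 (SE 0.21). Plasmacytoid dendritic cells had 1 higher and 2 lower, against 14% and 9.86%, or 2 and 0 with plain totals.

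The 1 member that was higher in plasmacytoid dendritic cells was Cox6a2, the form of subunit VIa known from heart and skeletal muscle, whose common partner is Cox6a1. It was read there at 1907 CPM in control 3, 2247 CPM in knockout 1 and 1719.5 CPM in knockout 3, from 797, 483 and 405 UMIs, and at 39.3 CPM in control 2, from 1 UMI in 11 cells. In the first 3 libraries it supplied 88.8% (exact binomial 95% interval 86.5 to 90.7), 91.1% (88.4 to 93.4) and 85.6% (82.1 to 88.7) of the UMIs of the Cox6a1 and Cox6a2 pair. These intervals, like the others on shares of counts, cover counting error only. A Cox6a2 UMI was found in 131 of 195 plasmacytoid dendritic cells (67.2%). It was found in none of 933 monocytes and none of 443 neutrophils, and 0 UMIs in the summed monocytes allow up to 0.812 CPM. The adjusted p was 2.9e-30 (edgeR), and the fitted fold is not given because it depends on the prior count added to classes near 0.

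NK cells held the next level of Cox6a2, at 9.76, 51.6 and 16.2 CPM in the controls and 14.3, 14.8 and 42.7 CPM in the knockouts. The gene was called higher in NK cells (adjusted p = 3.8e-08, edgeR) and supplied 3.67% to 15.1% of the Cox6a pair. Few cells carried it, since 31 of 1162 NK cells (2.67%) had a UMI and 8 cells with at least 5 UMIs held 109 of the 150. None of these 8 had a UMI of Siglech, the receptor gene that marks plasmacytoid dendritic cells, and 5 had at least 1 of the 8 plasmacytoid markers. Siglech was found in 0% of the other NK cells too, and the other markers were not counted there. The 1 T cell and the 1 B cell with at least 5 Cox6a2 UMIs held 12 and 14 Siglech UMIs. Whether plasmacytoid RNA in NK droplets plays a part was not tested. T cells, of similar depth, had a UMI in 16 of 3925 cells (0.408%). In hepatocytes 59 of 2245 cells had a UMI, and 6 cells held 172 of the 249 UMIs.

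The restricted forms Ndufa4l2 and Cox4i2 were found in stellate cells or fibroblasts, a class of 43 cells in controls 1 and 3, so no genotypes could be compared. The class was led by Col1a1, Col1a2, Col3a1, Acta2 and Rgs5, and the cell types it may hold were not split. Ndufa4l2, a relative of Ndufa4 known as a target of hypoxia signalling, was read there at 243 and 874 CPM. It supplied 11 of 30 UMIs (36.7%, 19.9 to 56.1) of the Ndufa4 and Ndufa4l2 pair in control 1 and 285 of 337 (84.6%, 80.3 to 88.3) in control 3. These UMIs lay in 3 cells of control 1 and 16 cells of control 3, with up to 71 in 1 cell. The intervals treat UMIs as independent, so they do not measure the difference between the 2 libraries. A UMI was found in 24 of 50 cells of the class, in 91 of 2245 hepatocytes and in none of 1162 NK cells. Cox4i2, the form of subunit IV known from lung and from oxygen-sensing cells, supplied 3 of 30 UMIs (10.0%, 2.11 to 26.5) of the Cox4i1 and Cox4i2 pair in control 1 and 144 of 367 (39.2%, 34.2 to 44.4) in control 3. A UMI was found in 17 of 50 cells, with up to 46 in 1 cell of control 3. In the other classes the library values reached at most 1.74% for Cox4i2 and 0.57% for Ndufa4l2.

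Cox6b2, known from testis, was read in erythroid cells at 19 of 111 UMIs of the Cox6b1 and Cox6b2 pair (17.1%, 10.6 to 25.4) in knockout 1 and 25 of 129 (19.4%, 13 to 27.3) in knockout 3, from 10 and 12 cells. The 24 erythroid cells of control 3 had no Cox6b2 UMI, and their cells held a median of 3229 UMIs against 10320.5 and 11737 in the knockouts, so the groups cannot be compared. In control 1, 3 of 5 erythroid cells held 8 Cox6b2 UMIs. Cox6b2 was called higher in monocytes, at 11.4 and 13.5 CPM in the controls and 16.0 and 18.4 CPM in the knockouts (adjusted p = 6.0e-07, edgeR). It was also called higher in basophils or mast cells, where 3 libraries lay between 25.2 and 32.6 CPM and controls 1 and 2 at 0, and in neutrophils (adjusted p = 0.019, edgeR), where 3 of 6 libraries were at 0. Cox7a1, the heart and muscle form of subunit VIIa, was read with 701 UMIs in hepatocytes, 0.41% to 0.73% of its pair with Cox7a2 in 5 libraries and 0 of 427 UMIs in control 2. The other muscle form, Cox8b, had 5 UMIs, all in hepatocytes.

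**Figure D3:**
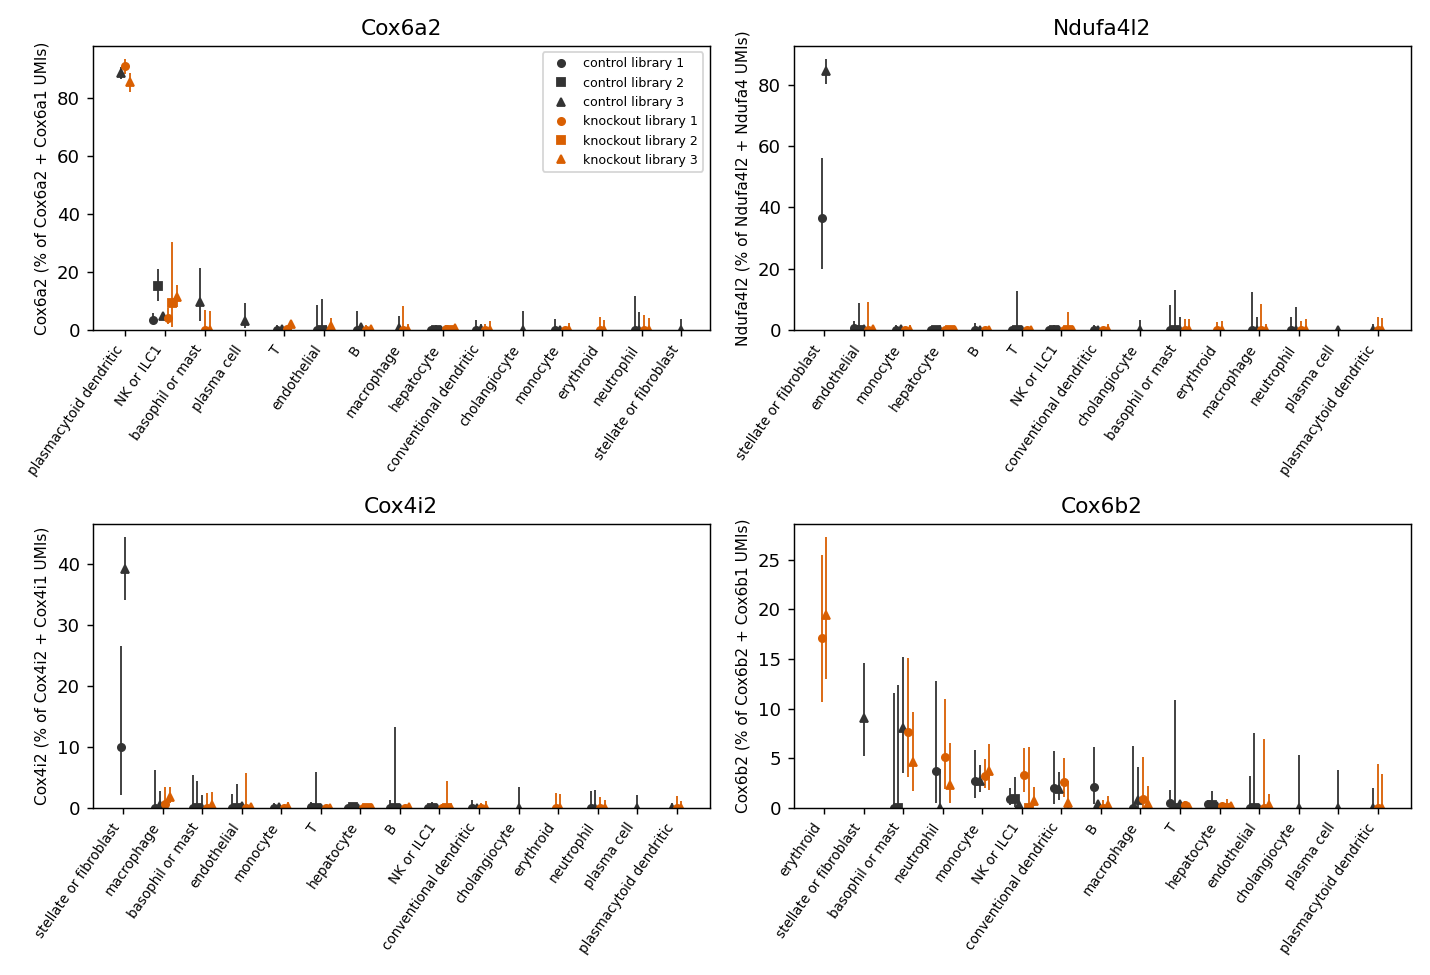
Share of the UMIs of an isoform pair that came from the restricted form (y axis, %), by class (x axis), for Cox6a2, Ndufa4l2, Cox4i2 and Cox6b2, in sums with at least 20 UMIs of the pair. Points are libraries (control dark, knockout orange; circle, square and triangle for libraries 1, 2 and 3) and bars are exact binomial 95% intervals. Cox6a2 lies at 85.6% to 91.1% in plasmacytoid dendritic cells, and Ndufa4l2 and Cox4i2 are high in stellate cells or fibroblasts.

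The promoters of the common and the testis form of subunit VIb, and of the common form of subunit VIa, are shown here because the paired genes differed in where they were read. The sequences are the 150 bases upstream of the RefSeq gene start (GRCm38.p6), 5′ to 3′ on the gene's strand, with matches to any of 4 motifs in capitals. The motifs are those of NRF1, ETS factors (CCGGAAG), YY1 (AAGATGGC) and the E-box (CACGTG), searched on both strands in windows from 250 bases before to 50 after the start, where the motifs may overlap one another. Cox6a1 lies at chr5:115348959-115349108, Cox6b1 at chr7:30626115-30626264 and Cox6b2 at chr7:4753095-4753244, each on the minus strand.
Cox6a1: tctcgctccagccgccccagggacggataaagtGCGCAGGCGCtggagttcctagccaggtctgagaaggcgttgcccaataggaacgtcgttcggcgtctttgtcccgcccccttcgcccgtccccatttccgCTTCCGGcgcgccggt
Cox6b1: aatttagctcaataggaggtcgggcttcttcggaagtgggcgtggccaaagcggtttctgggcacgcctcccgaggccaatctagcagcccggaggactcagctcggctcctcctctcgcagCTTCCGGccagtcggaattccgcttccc
Cox6b2: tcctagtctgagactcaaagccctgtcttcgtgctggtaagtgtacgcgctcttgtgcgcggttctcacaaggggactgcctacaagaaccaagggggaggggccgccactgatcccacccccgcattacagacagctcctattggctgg
The printed Cox6a1 stretch held an NRF1 and an ETS match and 18 CG pairs, that of Cox6b1 an ETS match and 12 CG pairs, and that of Cox6b2 none of the 4 motifs and 7 CG pairs.

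Of the 88 members 70 had a promoter in this table. NRF1, a regulator of nuclear genes for mitochondrial proteins, had a match in 16 of the 70 (22.9%), against 4.78% of all 27025 promoters. The ETS motif was in 16 (22.9%) against 9.12%, YY1 in 9 (12.9%) against 2.88%, and the E-box in 6 (8.57%) against 7.24%. At least 1 of the 4 motifs was in 39 (55.7%) against 20.8%. A match describes the letters only, and these files do not measure binding.

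Subunit c, which forms the rotor ring of the ATP synthase, is encoded by 3 genes, Atp5g1, Atp5g2 and Atp5g3, whose products differ in the import sequence that is cut off and make the same mature protein. Their proportions differed between classes. Atp5g1 supplied 47.8% ± 1.6 of subunit c UMIs in hepatocytes (n = 6), 44.3% ± 3.8 in monocytes and 41.8% ± 2.5 in macrophages (n = 4 each), and 25.9% ± 3.1 in B cells (n = 4). Atp5g2 had the reverse order, with 26.7% ± 2.3 in hepatocytes, 46.0% ± 2.3 in NK cells (n = 6), 46.6% ± 1.1 in T cells (n = 5) and 54.0% ± 6.0 in B cells. The share of Atp5g3 varied less, from 17.8% ± 5.7 in neutrophils to 25.5% ± 2.7 in hepatocytes. In CPM, the B cell level of Atp5g2 was 342 ± 65.7 beside 159 ± 57.1 for Atp5g1 (n = 5). Accordingly the hepatocyte difference was 2.92 for Atp5g1, 2.61 (SE 0.12) for Atp5g3 and 1.68 (SE 0.20) for Atp5g2. The test of B cells called Atp5g1 and Atp5g3 lower, by 0.94 (SE 0.25) and 0.67 (SE 0.18), and made no call for Atp5g2.

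**Figure D4:**
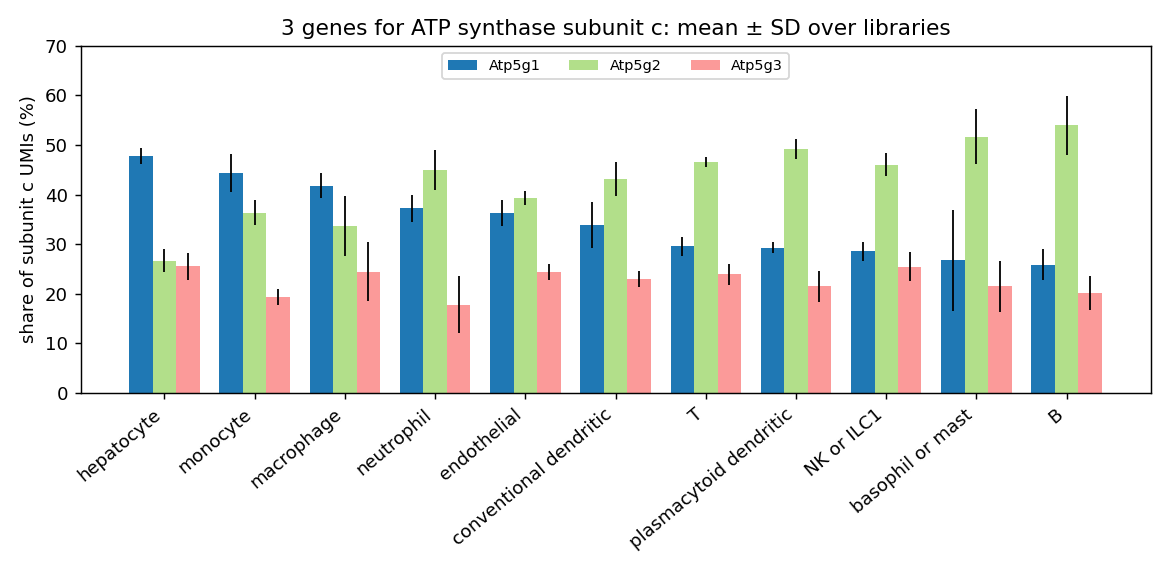
Share of subunit c UMIs from Atp5g1, Atp5g2 and Atp5g3 (y axis, %) by class (x axis), as means with SD over the libraries with at least 30 subunit c UMIs. Atp5g1 leads in hepatocytes at 47.8%, and Atp5g2 leads in B cells at 54.0%.

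The upstream stretches of these 3 genes, and of Uqcr11, the complex III member with the widest range, are shown because their levels parted between classes. They lie at chr11:96075632-96075781 (Atp5g1), chr15:102671048-102671197 (Atp5g2), chr2:73911327-73911476 (Atp5g3) and chr10:80406822-80406971 (Uqcr11) of GRCm38.p6, all on the minus strand, with motif matches in capitals as above.
Atp5g1: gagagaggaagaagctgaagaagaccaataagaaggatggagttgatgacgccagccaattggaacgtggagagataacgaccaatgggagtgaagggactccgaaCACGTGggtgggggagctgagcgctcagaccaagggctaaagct
Atp5g2: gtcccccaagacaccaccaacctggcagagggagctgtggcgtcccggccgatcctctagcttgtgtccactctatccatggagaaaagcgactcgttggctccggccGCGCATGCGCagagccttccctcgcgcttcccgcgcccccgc
Atp5g3: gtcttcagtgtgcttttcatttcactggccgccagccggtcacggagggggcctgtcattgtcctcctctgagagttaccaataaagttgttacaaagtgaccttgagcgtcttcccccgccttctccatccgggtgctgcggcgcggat
Uqcr11: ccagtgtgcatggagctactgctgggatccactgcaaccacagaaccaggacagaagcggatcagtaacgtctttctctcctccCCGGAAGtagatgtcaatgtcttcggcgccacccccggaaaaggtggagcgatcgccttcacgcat
Atp5g1 held an E-box and 6 CG pairs in this stretch, Atp5g2 an NRF1 match and 14 CG pairs, Uqcr11 an ETS match and 9 CG pairs, and Atp5g3 no match and 9 CG pairs. In the longer window Atp5g3 held an NRF1 match just after its start and an E-box further upstream.

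The other genes of the pathway were read beside the members, in lists chosen by function. They were counted in the full fit alone, so how these counts move with the settings was not tested. Of all genes tested 42.6% were called higher in hepatocytes and 32.9% lower. In hepatocytes, 48 of 49 tested genes of the large mitochondrial ribosomal subunit were higher (median 2.05), 13 of 14 of the citric acid cycle (2.18) and 38 of 43 assembly factors, with 3 lower (1.40). All 6 subunits and carriers outside the symbol patterns were higher there, among them Cyc1, cytochrome c1 of complex III, by 3.19. Of the 10 tested regulators of mitochondrial gene expression 8 were higher, led by Twnk (3.17), the mitochondrial helicase, and Tfam (2.48), which packages mitochondrial DNA. The 13 subunits encoded by the mitochondrial genome did not follow this, since 5 were higher and 1 lower in hepatocytes with a median of 0.34.

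The mitochondrially encoded subunits differed from the nuclear members in other classes too. In endothelial cells 60 nuclear members were lower while all 13 mitochondrially encoded subunits were higher (median 0.70), and in B cells 53 nuclear members were lower and 8 of the 13 were higher (0.41). Of all genes 34.1% were called higher in endothelial cells and 27.9% in B cells. In NK cells all 13 mitochondrially encoded subunits were lower (-0.60), and in conventional dendritic cells 12 of the 13 (-1.12), against 15.4% and 11.7% of all genes. In both classes no nuclear member was lower, and the share of nuclear members called higher was below that of all genes. The filter removes cells by their mitochondrial share, which is made of these same transcripts. In neutrophils, 11 of 13 glycolysis genes were higher (0.86) beside the 39 lower members, and in B cells 12 of 13 were lower (-1.55). Of all genes 24% were called higher in neutrophils and 20.7% lower in B cells.

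The knockout was first checked in NK cells, where Ncr1 drives Cre. Nr4a1 was read at 81.3, 32.5 and 52.6 CPM in the control NK cells and at 171.6, 0 and 71.1 CPM in those of the knockouts, from 125, 17, 205, 120, 0 and 55 UMIs. It was thus not lower in the NK cells of the libraries labelled knockout 1 and knockout 3. The deleted part of the gene and the place of the 3′ tags are not given in the sources used here, and a tag outside the deleted part checks nothing. The groups below are therefore the libraries labelled knockout and control.

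No member changed between the libraries labelled knockout and control in any of the 11 classes. Between 69 and 83 members were tested per class, and 0 passed in the edgeR quasi-likelihood test or in DESeq2. Of all genes tested 0.081% were called in basophils or mast cells (3 of 3704) and 0% in each of the other 10 classes. At an unadjusted p under 0.05 there were 14 members in basophils or mast cells, 1 in hepatocytes, 1 in monocytes and 0 in the other 8 classes. These were 18.9%, 1.20% and 1.27% of the members tested in the first 3 classes. The share of all genes was 9.42%, 0.876% and 3.72% there, and 0.583% to 4.88% in the other 8.

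In NK cells, the class at which the deletion was aimed, the members' share of UMIs was 2.13% ± 0.21 in the controls and 2.13% ± 0.29 in the knockouts (n = 3 each). The median of 78 members was -0.00 on the log2 scale, 38 were above 0, and single members lay between -0.30 and 0.43 with a median SE of 0.23. The smallest p belonged to Sdha, the flavoprotein of succinate dehydrogenase, at 64.4, 89.8 and 59.6 CPM in the controls and 51.5, 59.1 and 59.5 CPM in the knockouts (-0.29, SE 0.24). All 3 knockout libraries lay below the lowest control library, by less than 1 CPM at the nearest. Atp5g1 differed by 0.24 (SE 0.22) and Uqcrq by 0.20 (SE 0.21), all with an adjusted p near 1 in edgeR. In hepatocytes the share was 4.94% ± 0.42 and 4.85% ± 0.50, and the median of 83 members was -0.03. The hepatocyte member at an unadjusted p under 0.05 was Cox6a2, in which 144 of the 198 UMIs of knockout 3 came from 1 cell.

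Basophils or mast cells showed the largest difference that did not rest on 1 poor library. The members' share was 1.46% ± 0.06 in the 3 controls and 1.88% ± 0.11 in knockouts 1 and 3, without overlap. Of 74 members 69 were above 0 with a median of 0.42, beside 0.01 for all genes, and 18.9% of members against 9.42% of all genes had an unadjusted p under 0.05. Ndufa5 was read at 34.8, 12.6 and 38.6 CPM in the controls and 93.2 and 88 CPM in the knockouts (1.48, SE 0.45). Ndufb3, a membrane-arm subunit of complex I, was read at 78.3, 75.7 and 94.7 against 144 and 209.6 CPM (1.07, SE 0.33). Uqcrc1, a core protein of complex III, was read at 34.8, 37.8 and 49.1 against 139.7 and 79.6 CPM (1.35, SE 0.42). These 3 genes were picked for the smallest p in the class, so that their groups did not overlap adds no support. Their adjusted p was 0.425 in edgeR. The 27 cells of control 2 held a median of 2787 UMIs, so its values rest on few counts. The median stayed between 0.37 and 0.49 over 15 settings. The class held 112 control and 90 knockout cells. Mcpt4, Cma1, Mcpt8 and Prss34 were among its leading genes, and basophils and mast cells were not split. The part of their mix in each library was not tested. Members of 1 sum can vary together, so the 69 of 74 are not separate observations.

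No member passed in the other classes either. The smallest p there belonged to Ndufa8, an accessory subunit of complex I, in monocytes (-0.67, SE 0.26, adjusted p near 1 in edgeR), and it lay between -0.90 and -0.44 over the alternatives. The median was 0.60 in plasmacytoid dendritic cells, with 74 of 76 members above 0, but -0.07 without control 2, in whose 11 such cells the members made up 0.153% of UMIs and which were all under 5% ribosomal protein UMIs. Leaving out control 3 there left those 11 cells as the only control, and 65 members were then called with a median of 7.18. Macrophages had a median of 0.33 (71 of 75 above 0, median SE 0.50), endothelial cells 0.18, neutrophils 0.17, T and B cells 0.04 each, monocytes -0.09 and conventional dendritic cells -0.11. The difference between genotypes was also tested for its variation over NK cells, hepatocytes and neutrophils, the classes present in all 6 libraries. No gene of 9674 and none of 79 members passed in edgeR (0%). An unadjusted p under 0.05 was found for 224 of the 9674 genes and 0 members. At that share of all genes few members would pass, so the 0 does not set the members apart. No gene of the other lists was called in any class.

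**Figure D5:**
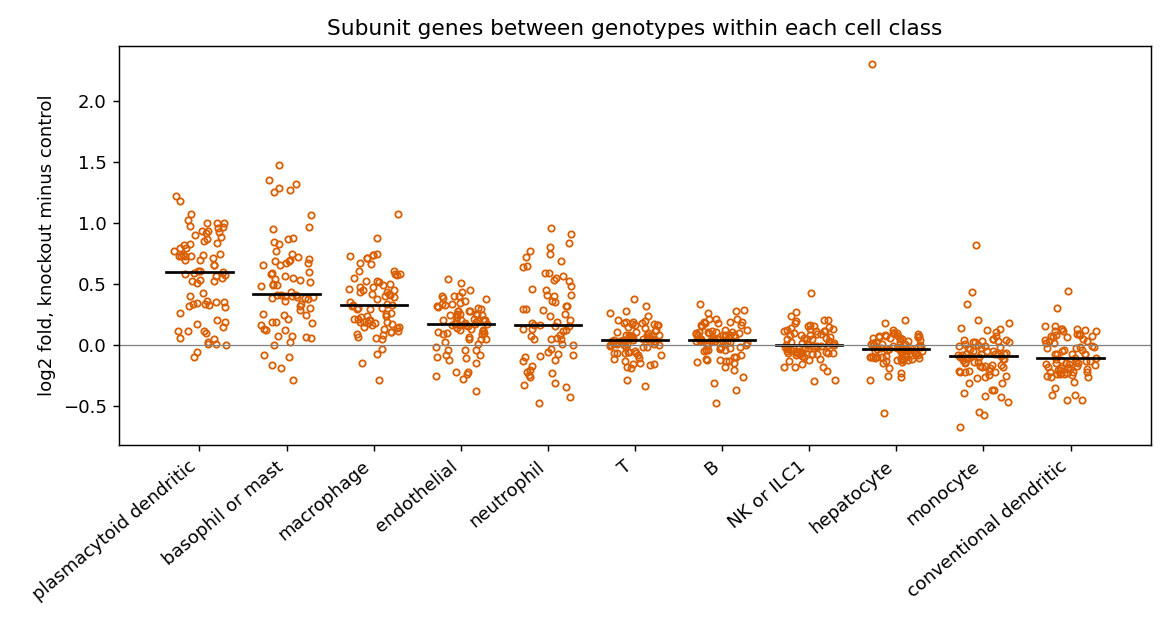
Difference between libraries labelled knockout and control (y axis, log2 fold) for each tested member (open circles), by class (x axis), with a black line at the median. No member passed the threshold. Medians run from 0.60 in plasmacytoid dendritic cells, which rests on control 2, and 0.42 in basophils or mast cells to -0.11 in conventional dendritic cells, and the high hepatocyte point is Cox6a2.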

How the data were processed

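Unnormalised UMI counts were deposited as 1 matrix per library. The matrices of control 3 and knockout 3 held 2207809 and 1715660 barcodes, most of them under 500 UMIs. Those of libraries 1 and 2 held 1021 to 4592 barcodes, all with at least 500 UMIs. No empty-droplet caller was run here, and what this difference does to the cells kept was not tested. Per the file headers, the authors used Cell Ranger 7.0.1 for libraries 1 and 2 and 9.0.1 for libraries 3. The submitters' processing notes name Cell Ranger 9.0.1 and the genome GRCm39. Libraries were 10x 3′ v3.1, per the labels' protocols. The 2 hashtag samples are not analysed here, and hashtag counts stayed out of all totals.

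Barcodes were kept from 500 UMIs and 300 genes upward, if mitochondrial transcripts made up no more than 20% of UMIs. A cell was called by at least 3 markers of a class holding 0.1% of its UMIs (hepatocytes 6 and 0.5%, plasma cells and cholangiocytes 4 markers), with at most 0.5 as many markers of any other class. These cut-offs were set on the data. No doublet caller was run, and 2121 cells with markers of several classes stayed uncalled.

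UMIs were summed per library and class (at least 10 cells) and tested in edgeR 4.0.16 (quasi-likelihood, TMM scaling, filterByExpr, Benjamini-Hochberg over all genes tested) in R 4.3.3, with DESeq2 1.42.0 as an alternative. The SE is the absolute log2 fold divided by the square root of F. The statistics were tested on simulated data. Tables used Python 3.11.15 with pandas 2.3.3, numpy 2.4.6 and scipy 1.17.1, and figures matplotlib 3.10.9. Promoters came from RefSeq tables of GRCm38.p6, matched by symbol.

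The labels give both groups replicate numbers 1 to 3. Deviations from the group means correlated between same-numbered libraries by 0.27, 0.18 and 0.21 in hepatocytes. In NK cells the values were 0.27, 0.27 and 0.26. In neutrophils the correlations were 0.63, 0.36 and 0.09, and control 3 correlated more with knockout 2, at 0.22. Whether the numbers stand for paired samples, or for quality or preparation shared by number, was not tested.

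Named genes were members with a tissue-restricted form and their partners, the 2 highest and the 2 most variable members of each complex with a class mean of at least 20 CPM, the 2 smallest p per direction in each class, and the 3 smallest p per class between genotypes. A few are named outside this rule, after their values were seen. The members and lists were chosen with earlier results of these data known. The alternatives without cells under 5% ribosomal protein UMIs, and without both libraries numbered 2 between classes, were chosen after seeing the data.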

Additional observations from a re-analysis of the deposited data

Results flagged for a closer look

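Of 66 groups of 4 to 6 libraries examined, 4 held a library far from the others. Chance alone gives about 1 in 20, so this count is near what chance gives. The groups were the members' total share and the share of each complex in each class, which are not independent. All 4 concern the plasmacytoid dendritic cells of control 2, where 11 cells were called. The 88 genes made up 0.153% of their UMIs, against 2.22% to 2.46% in the other 3 libraries. The shares of complexes I, III and IV were 0.0510%, 0.00785% and 0.0432% of UMIs. All 11 cells had under 5% ribosomal protein UMIs and their median depth was 2131 UMIs, against 4406.5 to 6298.5 in the other libraries. Their part in the low share was not tested.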

How the results depend on the processing

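The count of 77 members higher in hepatocytes was 76 to 81 over the 17 settings. Other class counts moved as follows, and the cause was not tested except where fewer samples entered. With the control libraries alone the counts were 20 lower in B cells (53 in the full fit), 37 lower in endothelial cells (60), 14 lower in neutrophils (39), 4 lower in basophils or mast cells (10), 3 higher in NK cells (15), 3 higher in conventional dendritic cells (13), and 0 called in T cells (3), 0 in macrophages (8), 1 in monocytes (7) and 1 in plasmacytoid dendritic cells (3). Without both libraries numbered 2 they were 9 in NK cells, 5 in T cells, 17 in basophils or mast cells, 13 in macrophages and 12 in monocytes. Plain library totals gave 27 in NK cells, 6 in T cells, 8 in conventional dendritic cells and 70 in neutrophils. DESeq2 gave 13 in T cells, 16 in basophils or mast cells, 19 in monocytes and 6 in plasmacytoid dendritic cells. At most 10% mitochondrial UMIs gave 28 in NK cells and 5 in T cells. Cells with at least 5% ribosomal protein UMIs gave 15 in T cells, 43 in basophils or mast cells, 18 in macrophages, 16 in monocytes, 11 in neutrophils and 5 in plasmacytoid dendritic cells. No filter gave 5 in conventional dendritic cells. In plasmacytoid dendritic cells, leaving out mitochondrial, hepatocyte, neutrophil and haemoglobin genes gave 6, cells with at least 1000 UMIs 5 and stricter calls 5. Leaving out 1 library at a time gave 29 to 56 in B cells, 51 to 70 in endothelial cells, 24 to 50 in neutrophils, 3 to 17 in basophils or mast cells, 7 to 21 in NK cells, 3 to 17 in conventional dendritic cells, 0 to 6 in T cells, 2 to 11 in macrophages, 1 to 12 in monocytes and 1 to 7 in plasmacytoid dendritic cells. Of the counts with no such values above, that of T cells was 1 without control 1 or control 3, 5 without control 2, 6 without knockout 2 and 0 without knockout 3. That of macrophages was 5 without control 1, 2 without control 3 or knockout 3 and 3 without knockout 1. That of monocytes was 12 without control 2, 4 without control 3 and 1 without knockout 3, and that of plasmacytoid dendritic cells 1 without knockout 1 and 7 without knockout 2. Plain totals moved the median of all genes by over 0.1 in some classes, to 0.41 in endothelial cells and -0.59 in neutrophils, where the members lay at -0.51 and -0.94, and DESeq2 moved it to -0.78 in NK cells and -0.57 in B cells, with members at 0.08 and -0.90.

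Between genotypes 0 members were called under every setting except in plasmacytoid dendritic cells, where leaving out 1 library gave 0 to 65. With the replicate block, which pairs libraries by number, 0 members were called in the 10 classes that could be fitted, and the block changed no call. Directions that turned were of values not called. Sdhc in endothelial cells (0.24) went to -0.0361 at 10% mitochondrial UMIs and lay between -0.0797 (without knockout 3) and 0.307 when 1 library was left out. Ndufa3 in neutrophils (0.23) went to -0.18 with plain totals. Sdhd between genotypes in endothelial cells (0.51) lay between -0.526 (without knockout 3) and 0.870 when 1 library was left out. Cox6b2 in hepatocytes (-0.02) went to 0.0534 with DESeq2, 0.0443 without both libraries numbered 2, 0.066 with at least 1000 UMIs, 0.0724 with no filter, 0.0470 without the gene groups and 0.0046 with stricter calls, and lay between -0.266 and 0.0351 when 1 library was left out. Each other named value was compared under each alternative setting. Of these comparisons, 27 passed and 45 lost the threshold, and 1031 kept side and direction. The 887170 UMIs of knockout 2 limit what its classes can show.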

Other observations

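Cox7a1, the muscle form of subunit VIIa, was read in 8 of 24 cholangiocytes with 35 UMIs, of which 29 came from the 2 cholangiocytes of control 2. A Cox7a1 UMI was found in 492 of 2245 hepatocytes and in 2 of 1167 endothelial cells. Cox6b2 was read in 5 of 50 stellate cells or fibroblasts with 16 UMIs, and 15 of these came from control 3, up to 11 in 1 cell. These classes are small, and the values carry no test.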
